A study of Mus musculus with 8 samples.

Results

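Peroxisomes are single-membrane organelles that shorten very long and branched fatty acids, make ether lipids and break down hydrogen peroxide. The genes described here are 32 listed peroxins, peroxisomal transporters and oxidation enzymes, matched by symbol to the 55450 gene identifiers of the count files. All 32 were found, and 30 passed the count filter that left 14641 genes for testing. The RNA sequenced was polyadenylated RNA of PyMT-1099 cells, a mouse breast cancer line derived from a mammary tumour of an animal that carried the polyoma middle T oncogene under the MMTV promoter. The 8 libraries form 4 groups of 2: parental cells left untreated, parental cells after 10 days in TGF-β at 2 ng/ml, untreated Agps knockout cells, and Agps knockout cells after the same TGF-β treatment. All 4 groups thus share the tumour line and its oncogene. The knockout libraries carry 1 line name, SCC10, which the labels do not explain, so an effect of the knockout cannot be told apart from a property of that line. Agps encodes alkylglycerone phosphate synthase, an enzyme of ether lipid synthesis that is itself imported into the peroxisome.

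Matrix enzymes are made in the cytosol and are imported into the peroxisome in folded form. Pex5 binds a signal at their carboxyl end and Pex7 binds a signal near the amino end, which Agps, the thiolase Acaa1a and Phyh carry. The receptors dock on Pex13 and Pex14, are ubiquitinated by a complex of RING proteins that includes Pex2 and Pex10, and are pulled back out by an ATPase complex that includes Pex6 and is anchored by Pex26. Pex3, Pex16 and Pex19 insert membrane proteins, and the Pex11 proteins shape and divide the organelle. Inside, an oxidase, a bifunctional enzyme and a thiolase shorten fatty acids with release of hydrogen peroxide, which catalase removes. TGF-β drives epithelial to mesenchymal transition in mammary cells.

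To show regulatory sequence beside the expression changes, the 250 bases before the RefSeq gene start are printed for 4 genes. They are Cat, Ech1 and Pxmp4, which fell by more than 1 on the log2 scale in both lines, and Acox3, the only gene of the list called higher in both. They were chosen after their values were seen. They are written 5′ to 3′ on the strand of the gene, from RefSeq on GRCm38.p6, with capitals marking CCAAT and GGGCGG on either strand. The window of Cat is chr2:103485154-103485403 on the minus strand and that of Pxmp4 is chr2:154603674-154603923 on the minus strand. The window of Ech1 is chr7:28825088-28825337 on the plus strand and that of Acox3 is chr5:35582784-35583033 on the plus strand. The GENCODE M21 annotation starts Ech1 at 28825217, Pxmp4 at 154603708 and Cat at 103485160, inside their windows. Part of each of these windows, with the GGGCGG matches of Ech1, thus lies within the gene as annotated there.
Cat: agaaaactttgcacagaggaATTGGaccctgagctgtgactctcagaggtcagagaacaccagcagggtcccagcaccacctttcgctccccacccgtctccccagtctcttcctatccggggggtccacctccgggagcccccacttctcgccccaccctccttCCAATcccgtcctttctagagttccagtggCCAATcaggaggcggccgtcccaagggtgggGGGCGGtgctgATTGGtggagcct
Pxmp4: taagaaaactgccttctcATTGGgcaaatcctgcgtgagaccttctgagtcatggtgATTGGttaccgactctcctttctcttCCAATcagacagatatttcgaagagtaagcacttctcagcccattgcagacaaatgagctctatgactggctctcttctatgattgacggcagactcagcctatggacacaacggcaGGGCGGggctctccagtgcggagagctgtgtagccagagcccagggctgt
Ech1: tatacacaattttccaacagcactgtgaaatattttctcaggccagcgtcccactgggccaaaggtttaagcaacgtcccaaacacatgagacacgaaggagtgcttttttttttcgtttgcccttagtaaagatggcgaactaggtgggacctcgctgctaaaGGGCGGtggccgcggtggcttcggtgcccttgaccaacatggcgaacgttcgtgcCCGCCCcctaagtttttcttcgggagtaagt
Acox3: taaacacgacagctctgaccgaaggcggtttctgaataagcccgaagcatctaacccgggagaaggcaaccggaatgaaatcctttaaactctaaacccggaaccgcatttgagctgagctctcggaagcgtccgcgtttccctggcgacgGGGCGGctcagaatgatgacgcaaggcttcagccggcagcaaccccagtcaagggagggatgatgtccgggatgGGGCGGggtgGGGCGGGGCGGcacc
The Cat window holds 4 CCAAT and 1 GGGCGG matches, and the Pxmp4 window 3 and 1. The Ech1 window holds 0 CCAAT and 2 GGGCGG matches, and the Acox3 window 0 and 4, some of which share bases.

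RefSeq gave 28 such windows for 24 of the 32 genes, all but Pex2, Pex19, Abcd2, Abcd4, Pxmp2, Hsd17b4, Amacr and Crat. GGGCGG, the core of a GC box, was in 19 of the 28 windows (67.9%), beside 56.0% of the windows of tested genes and 32.7% of all windows. CCAAT was in 12 (42.9%), beside 35.6% and 33.8%. The nuclear receptor site AGGTCA was in 3 (10.7%), beside 11.1% and 14.0%. Its exact direct repeat with 1 free base between the copies (DR1) was in 0, beside 0.0471% and 0.0335%. DR1 is a form bound by PPAR with RXR, and it always holds AGGTCA. An exact repeat this rare would hardly be met in 28 windows, so the 0 says nothing of PPAR sites. The E-box CAGGTG was in 2 (7.14%), beside 15.5% and 17.2%. Both strands were searched, and a match describes letters only.

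Library totals ran from 17007268 to 21311831 counts, and the pair of libraries of a group correlated at 0.991 to 0.994 (Pearson's r of log2 CPM across genes, which are not independent replicates). Agps stood at 357.2 and 329.8 CPM (counts scaled to library size, with TMM factors) in untreated parental and 264.8 and 266.2 CPM in treated parental cells, and at 32.9 and 29.3 CPM and 43.9 and 35.6 CPM in knockout cells, low in all 4 knockout libraries and at 0 in none. Fn1, the fibronectin gene, rose by 4.23 and 3.83 and Cdh1, the E-cadherin gene, fell by 2.26 and 2.53 on the log2 scale with TGF-β in parental and knockout cells. Of 6 epithelial markers 4 were tested, Krt8, Krt18, Krt19 and Cdh1, while Epcam and Cldn7 had 0 counts in all 8 libraries. The summed level of the 6 was 5801.5 to 6395.5 CPM in untreated and 3124.8 to 3327.5 CPM in treated parental cells, and 4180.5 to 4506.0 CPM and 3234.3 to 3447.7 CPM in knockout cells. In knockout cells the means of Krt19 (1168.3 and 149.3 CPM) and Cdh1 (302.0 and 52.3 CPM) were lower with TGF-β. Those of Krt8 (796.2 and 887.2 CPM) and Krt18 (2076.7 and 2252.2 CPM) were not. Adipocyte markers (1 of 6 tested, Plin1 and Cfd at 0) summed to at most 1.86 CPM. Immune markers (2 of 7 tested, Adgre1 and Cd3e at 0) summed to 17.6 to 33.2 CPM. The 2 tested went opposite ways with TGF-β. The mean of Csf1r went from 30.9 to 22.3 CPM in parental and from 30.3 to 6.85 CPM in knockout cells. That of Cd68 went from 1.47 to 6.69 CPM and from 2.33 to 10.8 CPM. Endothelial markers (2 of 5 tested) summed to 0.603 to 1.58 CPM in untreated libraries, 76.6 CPM in both treated parental and 6.70 to 8.24 CPM in treated knockout libraries. Most of the treated sums was Cdh5 (75.6 CPM in both treated parental libraries), while Pecam1, Kdr, Tie1 and Tek were at most at 0.953 CPM. Fibroblast markers (2 of 5 tested, Thy1 at 0), listed as also induced by TGF-β, summed to 0.316 to 0.532 CPM in untreated and 81.5 to 97.6 CPM in treated libraries. Most of the treated sums was Pdgfrb (80.1 to 94.0 CPM), with Pdgfra at most at 3.64 CPM and Dcn and Lum at most at 0.0596 CPM. The part of these markers in the results was not tested. In RNA of whole cultures, fewer cells of a type and less RNA per cell cannot be told apart. Whether the pair of libraries in a group stems from separate cultures is not in the labels, so the p-values here speak only of library-to-library spread, and that spread may be technical.

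The listed genes differed widely in level. Per kilobase of annotated exon, Cat was highest, at 176.4 and 173.0 CPM per kb in untreated parental cells. Hsd17b4 followed at 36.8 and 39.9 CPM per kb and Ech1 at 35.4 and 40.9 CPM per kb, with overlapping libraries. Pex2, at 29.8 and 28.7 CPM per kb, was the highest peroxin there, and Abcd3 stood at 24.9 and 27.2 CPM per kb. Of the tested genes Hacl1 was lowest, with a mean of 0.142 CPM per kb over the 8 libraries. Abcd2, a transporter of very long fatty acids, held 0 to 3 counts a library, and Ehhadh, which encodes the L-bifunctional enzyme, held 0 to 2 counts, and neither passed the filter. Hsd17b4, the D-bifunctional enzyme gene, held 1867 to 2882 counts a library.

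The first comparison was of TGF-β treated with untreated parental cells. Most changes in the list were falls. Of the 30 tested genes 17 fell and 1 rose (adjusted p under 0.05, edgeR quasi-likelihood test with Benjamini-Hochberg adjustment over all tested genes), where 21.2% of all tested genes fell and 21.3% rose, 42.5% in all. The median log2 fold change was -0.41, beside 0.01 over all tested genes. Treated and untreated libraries did not overlap for 26 of the 30, beside 72.1% of all tested genes. The summed level of all 32 genes was 1437.2 and 1498.5 CPM without and 867.4 and 883.1 CPM with TGF-β, and without Cat it was 976.2 and 1046.4 CPM and 730.8 and 731.2 CPM. The 13 peroxins alone summed to 335.0 and 356.4 CPM and 290.6 and 285.9 CPM. Instead of 17 falls, 8 were called without replicate 1 of the treated parental cells, 8 without replicate 2 of them and 10 without replicate 2 of the untreated parental cells. The replicates of a group were not level for the list: 21 of the 30 were higher in replicate 2 than in replicate 1 in untreated parental, 14 in treated parental, 22 in untreated knockout and 24 in treated knockout cells, beside 48.4% to 50.8% of all tested genes, and the part of this in the counts was not tested. Abcd3, Pxmp4, Acaa1a, Amacr, Ech1, Hacl1 and Cat fell, and Acox3 rose, in each of the 16 fits run.

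In knockout cells 10 of the 30 fell and 3 rose with TGF-β, where 20.6% of all tested genes fell and 20.9% rose, 41.4% in all. The median log2 fold change was -0.35, beside 0.00 over all tested genes. The groups did not overlap for 23 of the 30, beside 68.8% of all tested genes. The summed level of all 32 genes was 1509.0 and 1617.7 CPM without and 898.7 and 965.9 CPM with TGF-β, and without Cat 914.5 and 974.1 CPM and 750.6 and 814.9 CPM. The 13 peroxins alone summed to 320.3 and 328.6 CPM and 291.5 and 322.0 CPM, so the treated and untreated sums overlapped. Without replicate 2 of the untreated or replicate 1 of the treated knockout cells, 6 falls were called in place of 10. Abcd3, Pxmp4, Amacr, Ech1, Phyh and Cat fell, and Abcd4 and Acox3 rose, in each of the 16 fits. The 10 genes that fell in knockout cells were all among the 17 that fell in parental cells.

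**Figure D1:**
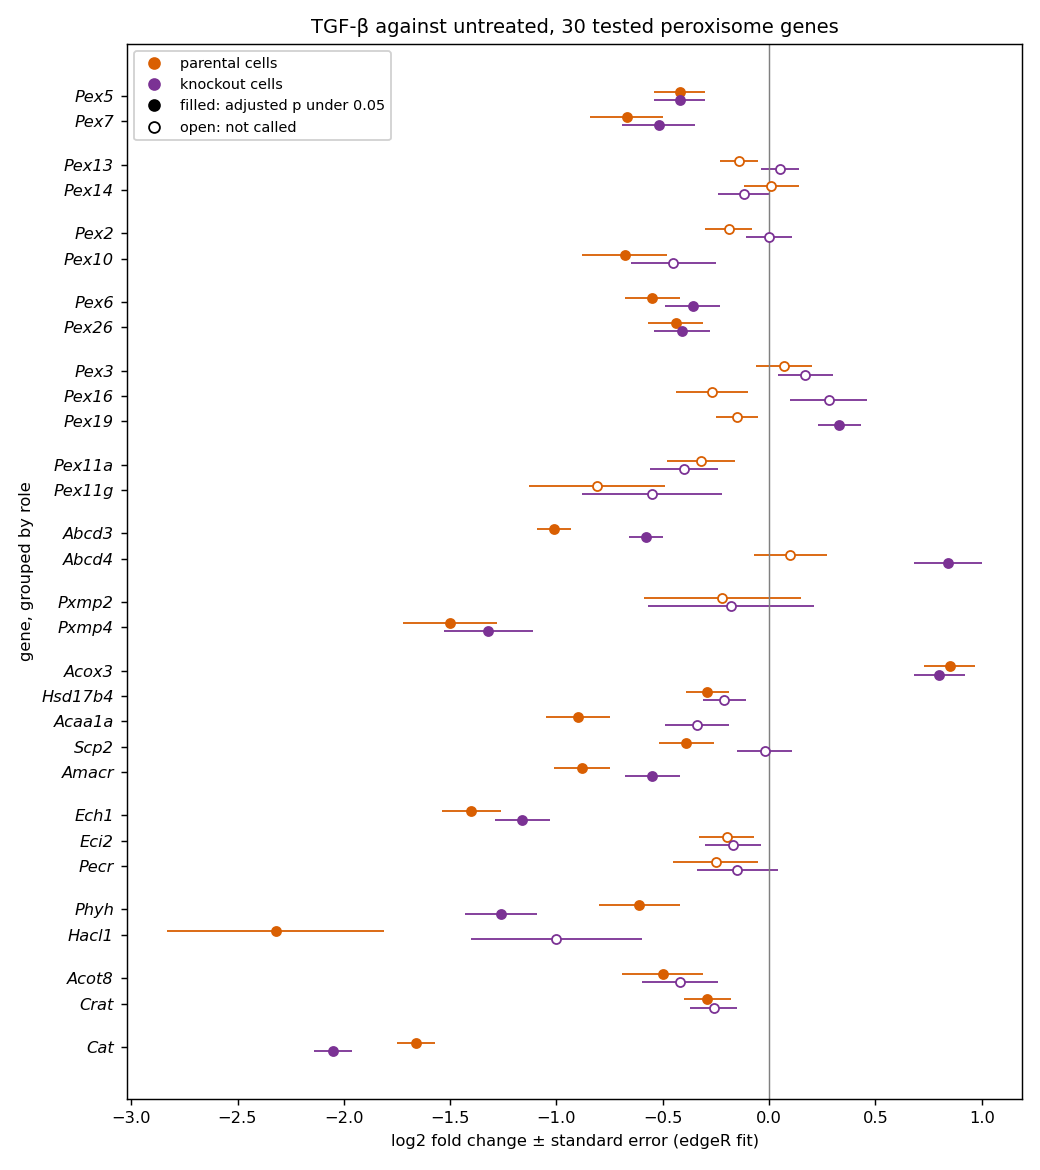
Log2 fold change with TGF-β (x axis, with standard error) of each of the 30 tested peroxisome genes (y axis, by role) in parental and in knockout cells; filled points passed an adjusted p under 0.05. Cat lies at -1.66 and -2.05, and Acox3 has filled points on the right in both lines.

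Cat encodes catalase, which splits hydrogen peroxide. It stood at 461.0 and 452.1 CPM in untreated and 136.6 and 151.9 CPM in treated parental cells. The same groups of knockout cells held 594.5 and 643.6 CPM and 148.1 and 151.0 CPM. The untreated knockout libraries were the highest, and the treated libraries of the lines overlapped. The log2 fold change with TGF-β was -1.66 (standard error, SE, 0.09; adjusted p = 5.54e-08 in edgeR) in parental cells, a 3.17-fold lower level. In knockout cells it was -2.05 (SE 0.09, adjusted p = 1.10e-08 in edgeR), a 4.14-fold lower level.

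Among transporters and membrane proteins, Abcd3 and Pxmp4 fell in both lines. Abcd3 encodes PMP70, a transporter of branched and dicarboxylic acyl-CoA. It stood at 164.1 and 179.7 CPM in untreated and 83.7 and 86.8 CPM in treated parental cells. Knockout cells held 138.5 and 141.7 CPM and 95.5 and 92.3 CPM. No treated library reached an untreated one in either line. The log2 fold changes were -1.01 (SE 0.08) and -0.58 (SE 0.08). Pxmp4 encodes a peroxisomal membrane protein and went from 15.9 and 22.4 CPM to 6.36 and 7.21 CPM in parental and from 15.7 and 22.1 CPM to 8.24 and 6.93 CPM in knockout cells. Its untreated libraries were more spread than its treated ones, and the groups did not overlap (log2 fold changes -1.50 and -1.32, adjusted p = 1.80e-04 and 3.75e-04 in edgeR). Pxmp2, a membrane channel gene, ranged from 1.70 to 4.22 CPM over the 8 libraries and was called in no comparison.

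Abcd4, despite its family name, encodes a transporter known for moving vitamin B12 out of lysosomes. It stood at 8.17 and 10.4 CPM in untreated and 10.1 and 9.77 CPM in treated parental cells, which overlapped. The knockout libraries went from 8.26 and 9.33 CPM to 14.7 and 17.0 CPM. Both treated knockout libraries were above the other 6. The log2 fold change was 0.84 (SE 0.16, adjusted p = 0.00117 in edgeR) in knockout cells and 0.10 (adjusted p = 0.678) in parental cells.

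**Figure D2:**
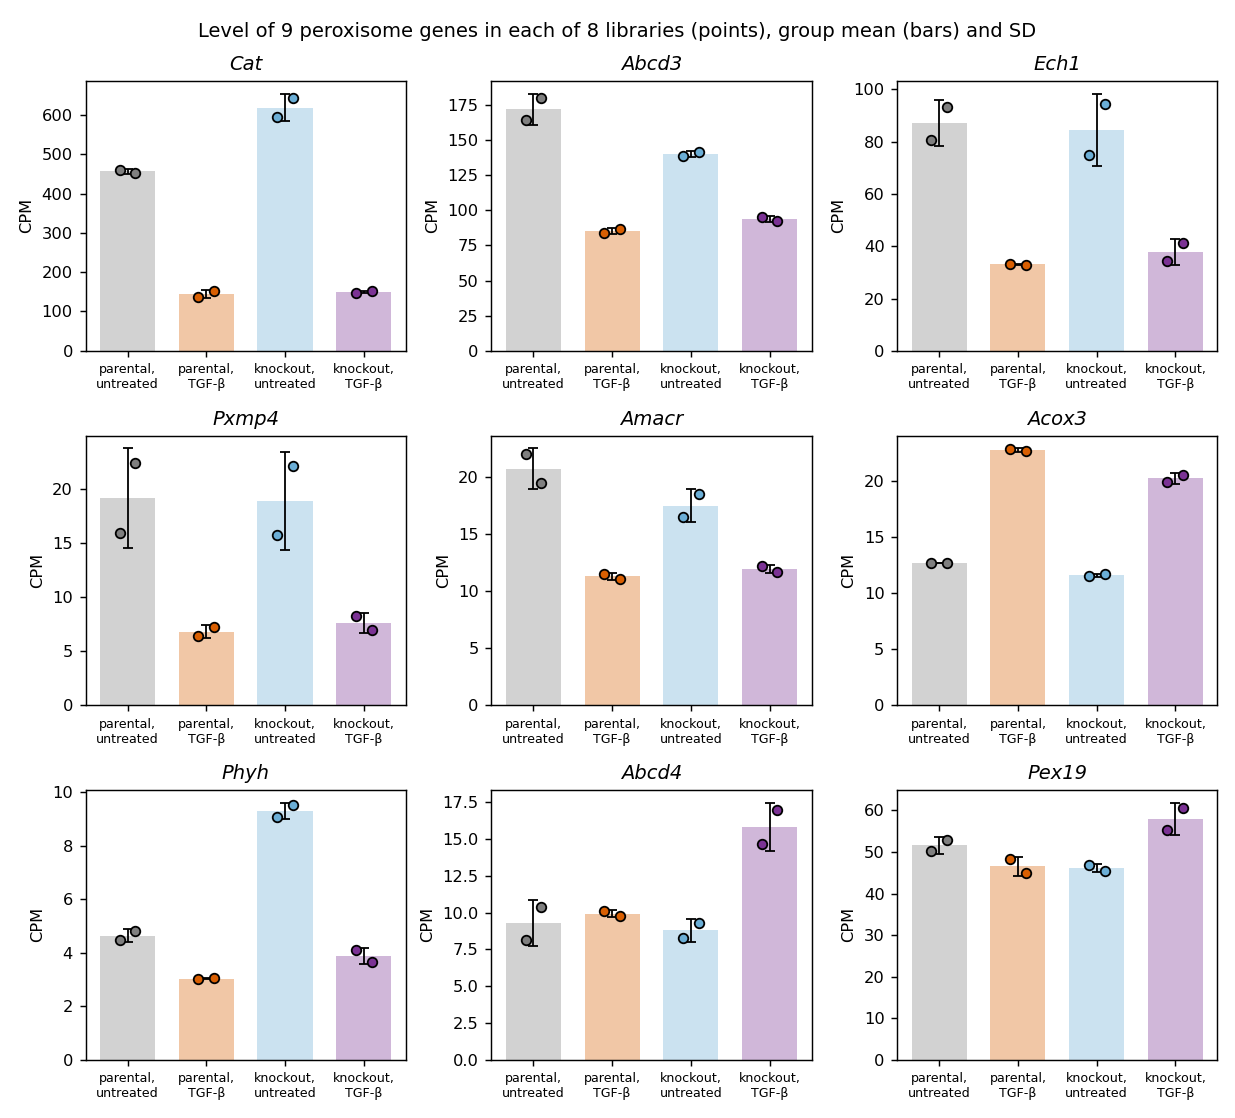
CPM (y axis, from 0) of selected peroxisome genes in each library (points) of the 4 groups (x axis), with the mean of 2 libraries and its SD. Cat, Abcd3, Ech1, Pxmp4 and Amacr are lower with TGF-β in both lines, while Acox3 is higher.

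In the β-oxidation steps 1 oxidase gene rose and later steps fell or did not pass. Acox3, an oxidase of branched acyl-CoA, stood at 12.7 and 12.7 CPM in untreated and 22.9 and 22.7 CPM in treated parental cells. Knockout cells went from 11.5 and 11.7 CPM to 19.9 and 20.6 CPM. Every treated library was above every untreated one (log2 fold changes 0.85 and 0.80, adjusted p = 1.22e-04 and 1.78e-04 in edgeR). Amacr, the racemase that readies methyl-branched acyl-CoA for oxidation, went from 22.0 and 19.5 CPM to 11.5 and 11.1 CPM in parental and from 16.5 and 18.5 CPM to 12.2 and 11.7 CPM in knockout cells. Every treated library was below every untreated one, and the log2 fold changes were -0.88 and -0.55.

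Acaa1a is the thiolase that cuts off acetyl-CoA. It stood at 20.3 and 23.8 CPM in untreated and 11.7 and 12.0 CPM in treated parental cells (log2 fold change -0.90, adjusted p = 5.65e-04 in edgeR). In knockout cells it stood at 19.3 and 18.2 CPM and 12.9 and 16.8 CPM (log2 fold change -0.34, adjusted p = 0.0898). The knockout groups did not overlap, and the change passed without replicate 2 of the treated knockout cells (log2 fold change -0.53, adjusted p = 0.0313) and shrank to -0.16 (adjusted p = 0.488) without replicate 1 of them. Hsd17b4 and Scp2, a thiolase and sterol carrier gene, fell by 0.29 and 0.39 on the log2 scale in parental cells. Both calls were lost without replicate 2 of the untreated or either replicate of the treated parental cells, with an edgeR adjusted p up to 0.215 and 0.194, and Scp2 was then as small as -0.26. In knockout cells their log2 fold changes were -0.21 and -0.02, and neither passed.

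The enzymes that handle unsaturated chains differed among themselves. Ech1, a dienoyl-CoA isomerase of peroxisomes and mitochondria, went from 80.8 and 93.4 CPM to 33.3 and 32.8 CPM in parental and from 74.9 and 94.3 CPM to 34.4 and 41.4 CPM in knockout cells. Treated libraries of both lines lay below all untreated ones. The log2 fold changes were -1.40 (SE 0.14, adjusted p = 7.56e-06 in edgeR) and -1.16 (SE 0.13, adjusted p = 2.99e-05). Eci2, an enoyl-CoA isomerase gene, ranged from 33.5 to 44.1 CPM and Pecr, an enoyl-CoA reductase gene, from 7.89 to 11.7 CPM, and neither was called in any comparison.

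Phyh and Hacl1 carry out α-oxidation, which removes 1 carbon from phytanic acid, and were low in level. Phyh, the hydroxylase, stood at 4.48 and 4.80 CPM in untreated and 3.02 and 3.04 CPM in treated parental cells. In knockout cells it stood at 9.08 and 9.51 CPM untreated, the highest of the 4 groups, and at 4.10 and 3.66 CPM with TGF-β. Its log2 fold change was -1.26 (SE 0.17, adjusted p = 9.88e-05 in edgeR) in knockout cells. In parental cells it was -0.61 (adjusted p = 0.0214), a call lost with DESeq2 (adjusted p = 0.0882) and in edgeR without replicate 2 of the untreated cells (0.0911) or replicate 1 or 2 of the treated cells (0.0999 and 0.0907). Hacl1, the lyase, held 15 and 21 counts in untreated and 5 and 2 counts in treated parental libraries, and 24 and 21 counts, then 9 and 11 counts, in knockout libraries. Its log2 fold change was -2.32 (SE 0.51, adjusted p = 0.00355 in edgeR) in parental cells, and the knockout change did not pass (adjusted p = 0.0674). Its counts are uncertain, since 31.1% of its exonic length is shared with Gm49387 on the same strand.

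Acot8, a thioesterase that releases shortened chains, stood at 6.22 and 5.97 CPM in untreated and 4.61 and 3.99 CPM in treated parental cells, a log2 fold change of -0.50 (adjusted p = 0.0481 in edgeR). The call was lost in 12 of 15 alternatives, among them each that left out 1 library, and stood just under the threshold with scaling without chromosomes 3, 8, 15 and X. Its adjusted p rose to 0.241 without replicate 2 of the treated parental cells. Crat, the carnitine acetyltransferase, ranged from 67.4 to 93.9 CPM and fell in parental cells by 0.29 on the log2 scale (adjusted p = 0.0444 in edgeR). Without replicate 1 of the untreated parental cells it was at -0.17 (adjusted p = 0.306), and 7 of 15 alternatives lost the call. In knockout cells their log2 fold changes were -0.42 and -0.26, and neither passed.

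Of the import receptors both fell in both lines. Pex7 stood at 14.5 and 20.1 CPM in untreated and 10.5 and 11.3 CPM in treated parental cells. Knockout cells held 17.6 and 21.6 CPM and 13.6 and 13.7 CPM. Treated libraries were below untreated ones within each line (log2 fold changes -0.67 and -0.52, adjusted p = 0.00856 and 0.0257 in edgeR). The first was -0.42 without replicate 2 of the untreated parental cells (adjusted p = 0.0883) and had an adjusted p of 0.0669 without replicate 1 of the treated ones. The second did not pass in edgeR without replicate 2 of the untreated knockout cells (adjusted p = 0.174) or either treated one (0.116 and 0.101). Pex5 ranged from 35.4 to 55.6 CPM and fell by 0.42 and 0.42 on the log2 scale, calls lost without any 1 of 3 parental libraries (replicate 2 untreated, both treated) and without replicate 2 of the untreated or replicate 1 of the treated knockout cells (edgeR adjusted p 0.0696 to 0.122).

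The docking genes were called in no comparison, and ranged from 43.1 to 52.1 CPM for Pex13 and from 18.2 to 21.9 CPM for Pex14. For Pex14, 28.3% of the exonic length lies opposite Gm17029, and whether counting used strand is not given in the sources used here. Pex10, a RING protein gene, went from 4.80 and 5.27 CPM to 2.97 and 3.34 CPM in parental cells (log2 fold change -0.68, adjusted p = 0.0202 in edgeR). The knockout libraries went from 5.36 and 4.50 CPM to 3.39 and 3.82 CPM (adjusted p = 0.0906). The parental call was lost with DESeq2 (adjusted p = 0.0765) and in edgeR without replicate 2 of the untreated (0.0880) or either treated parental library (0.129 and 0.0580). Pex2, its partner, ranged from 51.6 to 67.7 CPM and was called in no comparison.

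Both genes of the export complex fell in both lines. Pex6, the ATPase gene, went from 27.8 and 29.7 CPM to 21.8 and 17.4 CPM in parental and from 24.0 and 26.8 CPM to 18.7 and 20.9 CPM in knockout cells. Within each line no treated library reached an untreated one (log2 fold changes -0.55 and -0.36, adjusted p = 0.00645 and 0.0490 in edgeR). The parental call was lost without replicate 2 of the treated cells (adjusted p = 0.0854 in edgeR) and the knockout call in 9 of 15 alternatives, among them those without replicate 2 of the untreated (0.220) or either treated knockout library (0.240 and 0.0760). Pex26, its anchor, ranged from 11.0 to 18.6 CPM and fell by 0.44 and 0.41 on the log2 scale. These calls were lost without any 1 of 3 parental libraries (replicate 1 untreated, both treated) and without any 1 of the 4 knockout libraries, with an edgeR adjusted p up to 0.128 and 0.111.

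The membrane assembly genes Pex3 and Pex16 were called in no comparison. Pex19, the carrier of new membrane proteins, stood at 50.2 and 53.0 CPM in untreated and 48.2 and 45.0 CPM in treated parental cells. In knockout cells it went from 46.8 and 45.4 CPM to 55.2 and 60.7 CPM, the highest of the 4 groups. The log2 fold change there was 0.33 (SE 0.10, adjusted p = 0.0171 in edgeR), and it was lost without replicate 2 of the untreated (0.0763) or treated knockout cells (0.0943). The division genes Pex11a and Pex11g ranged from 6.93 to 10.2 CPM and from 1.57 to 5.68 CPM and were called in no comparison. For Pex11g in parental cells the log2 fold change was -0.81 (adjusted p = 0.0609 in edgeR), which passed in 7 of 15 alternatives, among them those without any 1 of the 4 knockout libraries (down to 0.0310), and whose adjusted p reached 0.222 in another. The knockout value was -0.55, and -1.17 (adjusted p = 0.0315) without replicate 2 of the treated cells but -0.10 (adjusted p = 0.848) without replicate 1 of them. Of its exonic length 41.1% lies opposite Gm44775.

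The knockout was compared with parental cells in each condition, on the same libraries as the TGF-β comparisons. Without TGF-β, 2 of the 30 were higher and 1 lower in knockout cells, where 4.72% of all tested genes were higher and 8.94% lower, 13.7% in all. The libraries of the lines were apart for 15 of the 30, beside 50.7% of all tested genes. Phyh, with 9.08 and 9.51 CPM against 4.48 and 4.80 CPM, had a log2 fold change of 1.00 (SE 0.17, adjusted p = 0.00218 in edgeR). Cat, with 594.5 and 643.6 CPM against 461.0 and 452.1 CPM, was higher by 0.44 (SE 0.09, adjusted p = 0.00534 in edgeR). Both were called in each of the 16 fits. Abcd3, with 138.5 and 141.7 CPM against 164.1 and 179.7 CPM, was lower, at -0.29 (adjusted p = 0.0371 in edgeR). It lies on chromosome 3, where the 36 other tested genes within 5 Mb had a median of -0.30 and the 763 others on the chromosome a median of -0.27. With TGF-β Abcd3 was at 0.14 (adjusted p = 0.306 in edgeR), on the other side of 0 from its neighbours (median -0.39) and its chromosome (median -0.30). The untreated call was lost in 7 of 15 alternatives, among them those without replicate 2 of the untreated parental cells (0.194), either untreated knockout library (0.142 and 0.0943) or either treated parental library (0.0779 and 0.0786).

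With TGF-β, 2 of the 30 were higher and 0 lower in knockout cells, where 6.82% of all tested genes were higher and 11.1% lower in edgeR, 17.9% in all. The libraries of the lines were apart for 14 of the 30, beside 61.3% of all tested genes. At an unadjusted p under 0.05, 0 were lower with edgeR, and DESeq2 called 0 lower. Abcd4, with 14.7 and 17.0 CPM against 10.1 and 9.77 CPM, had a log2 fold change of 0.67 (SE 0.16, adjusted p = 0.0135 in edgeR). It was not called without either treated parental library (0.0874 and 0.0968) or replicate 2 of the treated knockout cells (0.0995). Pex19, with 55.2 and 60.7 CPM against 48.2 and 45.0 CPM, was higher by 0.32 (adjusted p = 0.0450 in edgeR), a call lost without any 1 of these 4 libraries (0.0631 to 0.280) and with DESeq2 (0.0554). No gene of the list was called in both comparisons of the lines, beside 7.30% of all tested genes. Pex2, also on chromosome 3, was at -0.25 without and -0.07 with TGF-β, where its neighbours within 5 Mb had medians of -0.22 and -0.17. Pex11g, on chromosome 8, was at -0.51 and -0.25, where its neighbours within 5 Mb had medians of -0.28 and -0.29 and the whole chromosome -0.46 and -0.47. Over the 16 fits Pex11g ran from -0.83 to -0.25 without and from -0.87 to 0.20 with TGF-β, and the value above 0 came without replicate 1 of the treated knockout cells. The part of these chromosome-wide shifts in the levels of single genes was not tested.

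**Figure D3:**
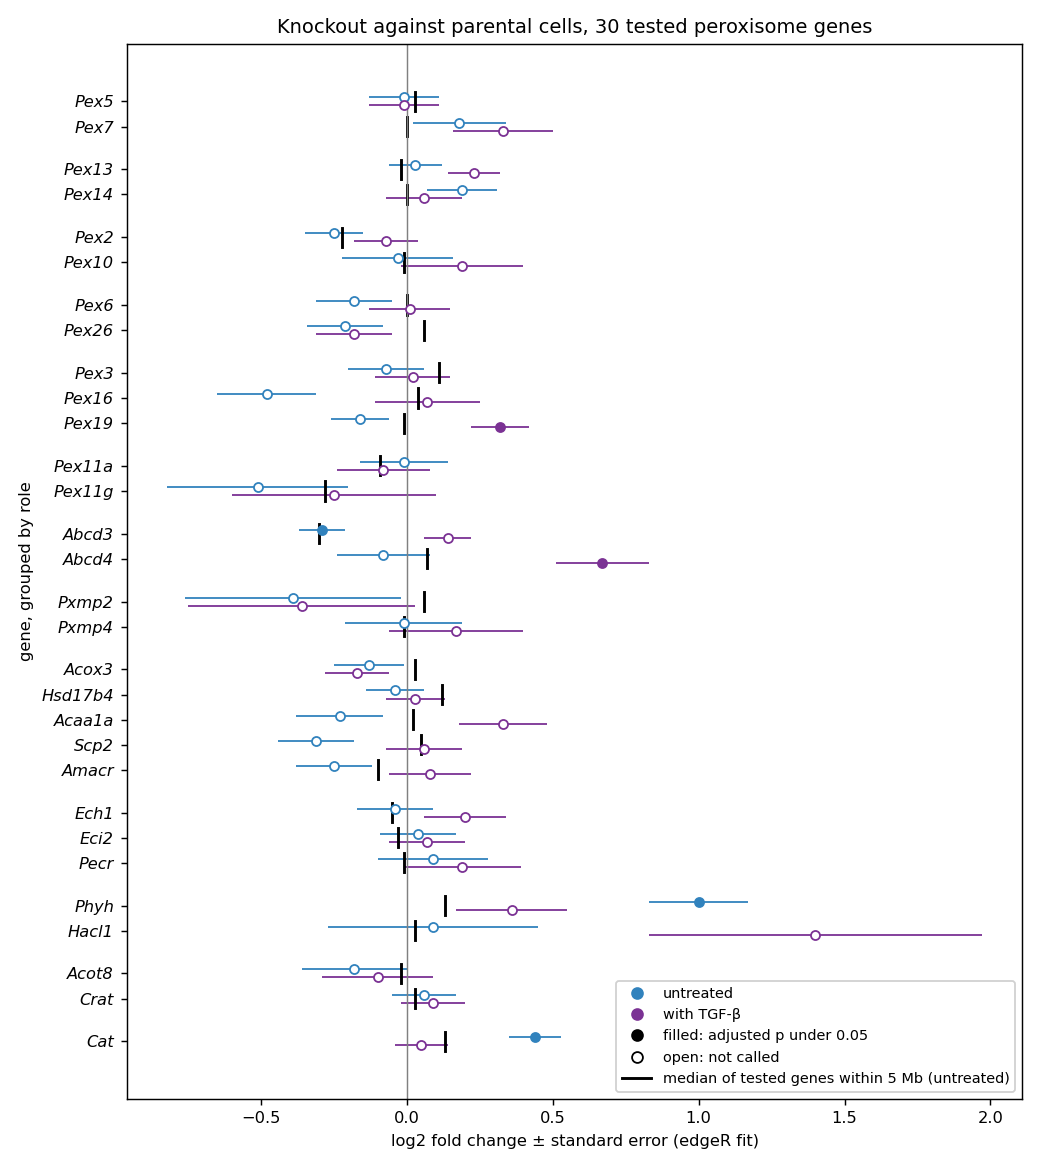
Log2 fold change of knockout against parental cells (x axis, with standard error) for each of the 30 tested peroxisome genes (y axis, by role), without and with TGF-β, with the median of tested genes within 5 Mb in untreated cells marked. Phyh and Cat without TGF-β, and Abcd4 and Pex19 with it, passed on the right, and Abcd3 without TGF-β lies at -0.29 beside its neighbours' median of -0.30, while with TGF-β it lies at 0.14, where its neighbours' median (not drawn) was -0.39.

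Whether the TGF-β changes differed between the lines was tested as an interaction. It was called for 0 of the 30 genes with edgeR and for 0 with DESeq2, where 2.40% of all tested genes were called with edgeR, 1.25% with a higher and 1.15% with a lower change in knockout cells. At an unadjusted p under 0.05 there were 7 with edgeR (Pex16, Pex19, Abcd3, Abcd4, Acaa1a, Phyh and Cat) and 5 with DESeq2, beside 13.9% of all tested genes with edgeR. The lowest adjusted p was 0.0966, for Abcd3, whose log2 fold change with TGF-β was higher by 0.43 in knockout cells (SE 0.12). For Abcd4 the difference was 0.75 (SE 0.23, adjusted p = 0.140 in edgeR). For Cat it was -0.39 (SE 0.12, adjusted p = 0.151) and for Phyh -0.65 (SE 0.25, adjusted p = 0.276). Changes called in 1 line alone, such as those of Acaa1a, Scp2, Hacl1, Abcd4 and Pex19, were thus not shown to differ between the lines.

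Other genes of the organelle also fell more often than they rose with TGF-β. Of 57 other peroxisome genes 46 were tested, of which 26 fell and 3 rose in parental cells, and 26 fell and 4 rose in knockout cells, with median log2 fold changes of -0.52 and -0.36. The parental shares were 56.5% and 6.52%, beside 21.2% and 21.3% of all tested genes. The knockout shares were 56.5% and 8.70%, beside 20.6% and 20.9%. Idh1, an isocitrate dehydrogenase of cytosol and peroxisome that makes NADPH, stood at 347.8 and 475.3 CPM in untreated and 41.1 and 51.6 CPM in treated parental cells, and at 296.4 and 385.7 CPM and 68.6 and 86.0 CPM in knockout cells. Tmem135, a peroxisomal membrane protein gene, fell by 1.18 and 1.10 on the log2 scale. Dao, a D-amino acid oxidase gene, went from 5.80 and 7.67 CPM to 0.159 and 0.119 CPM and from 7.58 and 8.54 CPM to 0.152 and 0.277 CPM. Acox2, the oxidase of bile acid precursors, went from 30.9 and 55.5 CPM to 11.7 and 10.0 CPM in parental and from 101.2 and 127.2 CPM to 18.8 and 19.3 CPM in knockout cells, the opposite direction to Acox3. Mvk, Pmvk and Idi1, which fell in both lines, are known for sterol synthesis. Between the lines 6 of the 46 were higher and 8 lower in knockout cells without TGF-β, and 4 and 6 with it, Agps among the lower ones. Without TGF-β these were 13.0% and 17.4%, beside 4.72% and 8.94% of all tested genes. With it they were 8.70% and 13.0%, beside 6.82% and 11.1%. Agps, the target of the knockout, was also the gene of that list whose TGF-β change differed between the lines (adjusted p = 0.0332 in edgeR). Its log2 fold changes were -0.37 in parental and 0.36 in knockout cells, the latter on the low level left there (29.3 to 43.9 CPM).

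Of 20 genes of mitochondrial fatty acid oxidation 18 were tested, and 9 fell and 0 rose in parental and 7 fell and 2 rose in knockout cells, with median log2 fold changes of -0.41 and -0.19. Cpt1a, which gates fatty acid entry into mitochondria, went from 134.8 and 148.0 CPM to 85.1 and 90.3 CPM in parental and from 153.6 and 168.4 CPM to 91.0 and 93.6 CPM in knockout cells. Acadm, the medium-chain dehydrogenase gene, fell by 0.91 and 0.59 on the log2 scale.

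**Figure D4:**
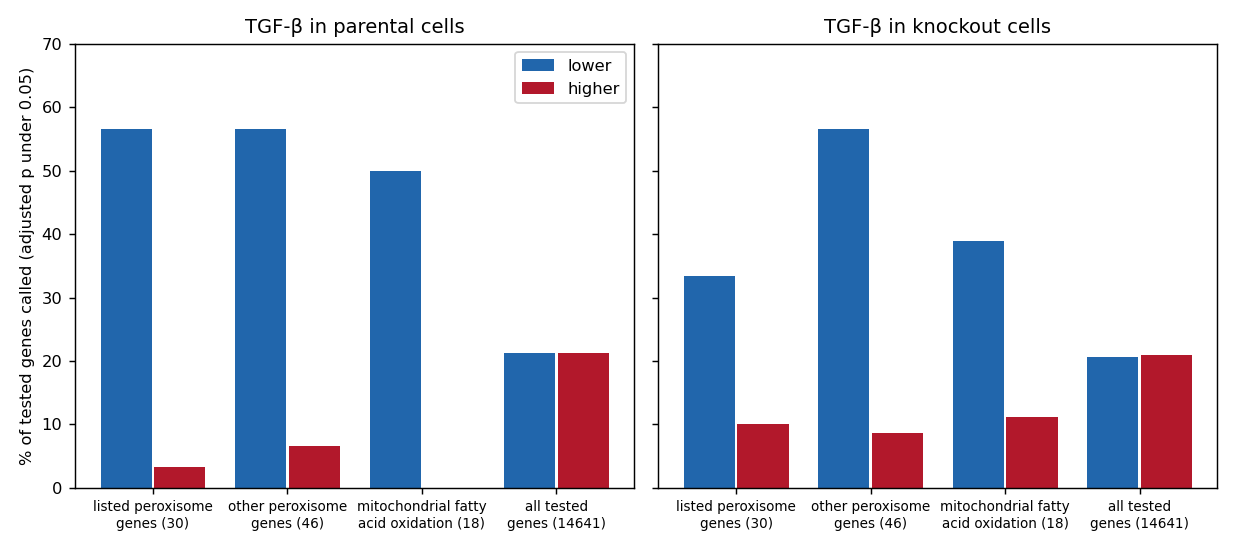
Share of tested genes called lower or higher with TGF-β (percent, adjusted p under 0.05) in parental and knockout cells for the listed peroxisome genes, related lists and all tested genes. Of the 30 listed genes 56.7% were lower in parental and 33.3% in knockout cells, beside 21.2% and 20.6% of all tested genes.

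PPAR receptors pair with RXR and switch on genes of peroxisomal oxidation in liver. Of 9 receptors and coactivators 7 were tested, of which 2 fell and 1 rose in parental and 2 fell and 2 rose in knockout cells. The parental shares were 28.6% and 14.3%, beside 21.2% and 21.3% of all tested genes. The knockout shares were 28.6% and 28.6%, beside 20.6% and 20.9%. Between the lines 2 of the 7 were higher in knockout cells without TGF-β and 4 with it, and 0 were lower. These are 28.6% and 57.1%, beside 4.72% and 6.82% of all tested genes. Ppara stood at 0.422 and 0.293 CPM in untreated parental and 3.38 and 3.25 CPM in untreated knockout cells. With TGF-β it stood at 0.265 and 0.298 CPM and 0.910 and 1.55 CPM. Ppargc1a, a coactivator of oxidative genes, went from 2.21 and 5.97 CPM to 0.265 and 0.357 CPM in parental and from 11.6 and 22.3 CPM to 0.404 and 0.443 CPM in knockout cells. Ppard ranged from 23.3 to 43.7 CPM and rose by 0.50 and 0.64 on the log2 scale. Of 12 PPAR targets outside the peroxisome 6 were tested, of which 2 fell and 2 rose in parental and 2 fell and 4 rose in knockout cells. Their shares were 33.3% and 33.3% in parental and 33.3% and 66.7% in knockout cells, beside the same shares of all tested genes. Plin2, a lipid droplet gene, rose by 1.95 and 1.77, while Cd36, a fatty acid uptake gene, went from 3.53 and 4.39 CPM to 0.212 and 0.0596 CPM and from 16.6 and 17.4 CPM to 0.101 and 0.166 CPM.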

How the data were processed

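Polyadenylated RNA of 8 libraries was counted per gene. The values are raw read counts that the authors deposited, made with STAR 2.7.1a and featureCounts 1.6.2 on GRCm38, per the submitters' processing notes, which also name DESeq2 1.26.0. For the annotation release and strand setting, the sources used here name none. The deposited normalized table was not used. Symbols were matched to gene identifiers, positions and exon lengths through the GENCODE M21 annotation (GRCm38).

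Counts were fitted in R 4.3.3 with edgeR 4.0.16 (limma 3.58.1): genes passing edgeR's filter on low counts (minimum count 10; 14641 of 55450), TMM scaling, 1 mean per group over all 8 libraries (4 residual degrees of freedom), quasi-likelihood tests, Benjamini-Hochberg adjustment over all tested genes and a threshold of 0.05. Standard errors are the log2 fold change divided by the square root of F. Levels are CPM after TMM scaling. The script was tested on simulated counts. Alternatives were 2 other scalings, a scaling without chromosomes 3, 8, 15 and X, no filter, DESeq2 1.42.0, a replicate block, a fit of only the 2 groups compared, and leaving out each library. A group left with 1 library was then assumed to vary like the others.

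The listed genes, the other lists and the tests were chosen with earlier results of these data known. Values are given per library for genes called with an absolute log2 fold change of at least 0.5 or alone in their role. Of other lists up to 4 called genes with the smallest adjusted p per comparison were eligible, if their average log2 CPM was at least 1. Genes named outside these rules were chosen after their values were seen.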

Additional observations from a re-analysis of the deposited data

How the results depend on the processing

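Each comparison of 2 groups sets 2 libraries against 2, or 1 against 2 where 1 of theirs was left out, and the interaction uses all 8. Precision in the main fit thus rests on a spread shared by all 4 groups, and low genes such as Hacl1 rest on few counts. No fold change of a listed gene that was called turned its direction in any of the 15 alternatives. Leaving out 1 library at a time gave 8 to 17 falls and 1 rise with TGF-β in parental cells, and 6 to 11 falls and 2 to 3 rises in knockout cells. It gave 2 genes higher and 0 to 1 lower in untreated knockout against parental cells, and 0 to 2 higher and 0 lower with TGF-β. In untreated cells the 1 lower gene became 0 with upper quartile scaling, 0 with only the 2 groups compared in the fit, and 2 with the replicate block. With TGF-β the 2 higher genes became 1 with scaling without chromosomes 3, 8, 15 and X, 1 with no filter and 1 with DESeq2. Over all genes, untreated knockout against parental cells gave 691 higher and 1309 lower, and 342 and 766 with only the 2 groups in the fit. The interaction gave 183 higher and 169 lower genes, 469 and 386 with no filter, 349 and 330 with the replicate block, and 279 higher with DESeq2. The causes were not tested. Same-numbered replicates deviated together in some pairs of groups (r of 0.568 for the untreated groups) and not in others (-0.00581 for the treated groups), and the labels do not say what a number stands for, so the numbers were taken as names. With the replicate block, Pex11g (adjusted p = 0.0197 in edgeR) was added to the falls in parental cells, and Pex11a (0.0461), Hsd17b4 (0.0381), Acaa1a (0.0485) and Crat (0.0398) to those in knockout cells. Scp2 (0.0450) was added to the genes lower in untreated knockout cells.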
